A study of Homo sapiens with 6 samples.

Results

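Mitochondrial complex I, the NADH dehydrogenase of the respiratory chain, is built largely from nuclear genes that share the prefix NDUF. The table held 46 such genes, taken by symbol (NDUFA, NDUFB, NDUFC, NDUFS, NDUFV, NDUFAB or NDUFAF followed by a number), out of 36932 rows with a gene symbol of their own and 52142 rows in all. Of the 46 genes, 38 carried subunit names and 8 were NDUFAF genes, which code for assembly factors. All 38 are called subunits here, although NDUFA4, first described in complex I, is now assigned to cytochrome c oxidase (complex IV). Levels are in CPM, the reads of a gene scaled to the size of its library. NDUFA7 stayed under a mean of 1 CPM and was not tested, so each comparison rests on 45 genes: 37 subunits and all 8 assembly factors.

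The RNA came from MDA-MB-231, a human triple negative breast cancer line with mesenchymal features. Polyadenylated RNA was sequenced in 6 libraries: 2 of control cells, 2 of colony 1 and 2 of colony 2, both colonies depleted of DDX18, an RNA helicase of the DEAD-box family with a known part in ribosome production. The labels give neither the knockdown agent nor the treatment of the controls, and they do not say whether a colony was grown from 1 cell or whether replicates were separate cultures. Replicate spread, and every p-value built on it, may thus be purely technical.

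Complex I is an L-shaped assembly. Its peripheral arm, in the matrix, takes electrons from NADH and passes them along iron-sulfur clusters to ubiquinone, and its membrane arm pumps protons. The membrane core is encoded by mitochondrial DNA, while the electron-transferring core and all accessory subunits are nuclear. Assembly factors help to join modules of the complex and are not part of the finished enzyme. In proliferating cancer cells, the NAD+ that complex I regenerates is known to sustain aspartate synthesis.

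DDX18 itself stood at 78.8 and 91.7 CPM in the control libraries, at 17.6 and 14.0 CPM in colony 1 and at 14.7 and 15.1 CPM in colony 2. The CPM steps put the reads counted per library between 8843847 and 11902437. The line's markers VIM (1739 to 1803 CPM) and CD44 (584 to 1050 CPM) were abundant and ESR1 and PGR were at or near 0 CPM, but ERBB2 stood at 102 to 134 CPM. Markers of other cells were few. Of 4 leukocyte markers 1 reached 1 CPM, with a summed level of 4.90 to 7.56 CPM in control and 4.86 to 7.44 CPM in the knockdown libraries, and PTPRC and CD3E were each under 1 CPM. The 2 endothelial markers found, CDH5 and VWF, summed to 0.400 to 0.409 CPM in control and at most 0.101 CPM after knockdown. Of 4 fibroblast markers 3 reached 1 CPM, and their sum was 50.7 to 55.9 CPM in control and 24.9 to 32.6 CPM after knockdown, with DCN at or near 0 CPM. Of 3 markers of the embryonic kidney line HEK293, 2 reached 1 CPM, and their sum was 15.1 to 17.5 CPM in control and 21.3 to 31.5 CPM after knockdown, with LIN28B at 0 CPM. Within the fibroblast list LUM (-1.68) and COL1A1 (-1.38) fell in log2 terms while PDGFRB rose (0.40, limma adjusted p = 0.0376). The list for the line held VIM and CD44 as present and ESR1, PGR, ERBB2 and EPCAM as low. All 6 together summed to 2480 to 2537 CPM in control and 2795 to 2942 CPM after knockdown, mostly from VIM and CD44. CD44 was higher (0.74), VIM level (-0.005) and ERBB2 lower (-0.26), while EPCAM (13.7 to 16.9 CPM) was not called. The part of these marker shifts in the NDUF values was not tested. In bulk RNA, fewer cells of a kind and less RNA per cell cannot be told apart.

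Among the NDUF genes that were called, subunit mRNAs mostly fell and assembly factor mRNAs mostly rose after the knockdown. Against control, both colonies together had 13 NDUF genes lower and 5 higher, where 44.7% of all 13675 tested genes were called (21.5% lower and 23.2% higher). All 13 that fell were subunits, and 4 of the 5 that rose were assembly factors. The median log2 change was -0.17 over the 37 subunits and 0.24 over the 8 assembly factors, against 0.01 over all tested genes. The assembly factor median was 0.39 once genes averaging under 10 CPM across the 6 libraries were dropped. This filter also draws on the knockdown libraries. It kept NDUFAF4 (mean 9.31 CPM in control, 13.9 CPM after knockdown) and dropped NDUFAF5 (8.84 and 9.50 CPM). The filter thus partly selects on the rise itself, so 0.39 cannot show a larger change in the more abundant factors. Calls rest on limma, fitted to log2(CPM + 1) over all tested genes, with the p-value adjusted by Benjamini-Hochberg under 0.05. All log2 changes are on that scale, which understates the change of low genes. With the 4 knockdown libraries treated as 1 group, whose spread then includes the difference between the colonies, 8 NDUF genes were called lower and 5 higher, where 2583 of all tested genes were lower and 2836 higher in place of 2944 and 3171.

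The colonies differed in how far the subunits fell. Colony 1 had 5 NDUF genes lower and 5 higher than control, where 18.3% of all tested genes were lower and 21.1% higher. Colony 2 had 20 lower and 3 higher, where 19.8% and 20.5% of all tested genes were. In either direction, 39.3% of tested genes were called in colony 1 and 40.3% in colony 2. The median over the subunits was -0.07 in colony 1 and -0.27 in colony 2, and that over the assembly factors was 0.33 and 0.21; both colonies were set against the same control libraries. The median of the assembly factors in colony 2 was 0.32 without colony 2 replicate 1 and 0.09 without colony 2 replicate 2. The subunit median in colony 1 was -0.04 without colony 1 replicate 2, -0.11 with each library's trend on transcript length removed and -0.12 with libraries centred on their medians. Fewer NDUF genes were called lower in colony 1 without control replicate 2 or either colony 1 library. The same held in colony 2 without control replicate 2 or colony 2 replicate 1. Fewer of all tested genes were called lower in these fits as well, though the drop was in proportion larger for the NDUF genes. It was smaller for them without control replicate 1 in colony 1 and without colony 2 replicate 2 in colony 2. Such fits leave 1 library in a group. The subunit median in colony 2 was -0.27 without control replicate 2 and -0.23 without colony 2 replicate 1.

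Summed over the 38 subunit genes, CPM reached 2037 and 2111 in the control libraries, 1963 and 1956 in colony 1, and 1625 and 1652 in colony 2. The sum over the 8 assembly factors went the other way, from 171 and 173 CPM in control to 230.3 and 239 CPM in colony 1 and 210.5 and 218 CPM in colony 2. Neither sum overlapped between the knockdown and the control libraries, and the colonies did not overlap with each other. Most of the assembly factor rise lay in NDUFAF3 and NDUFAF8. Their mean CPM was 41.4 and 31.5 in control, 73.1 and 50.4 in colony 1 and 69.7 and 43.3 in colony 2. NDUFAF4 and NDUFAF6 rose by less CPM, NDUFAF2, NDUFAF5 and NDUFAF7 were not called, and NDUFAF1 was lower in colony 2.

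**Figure D1:**
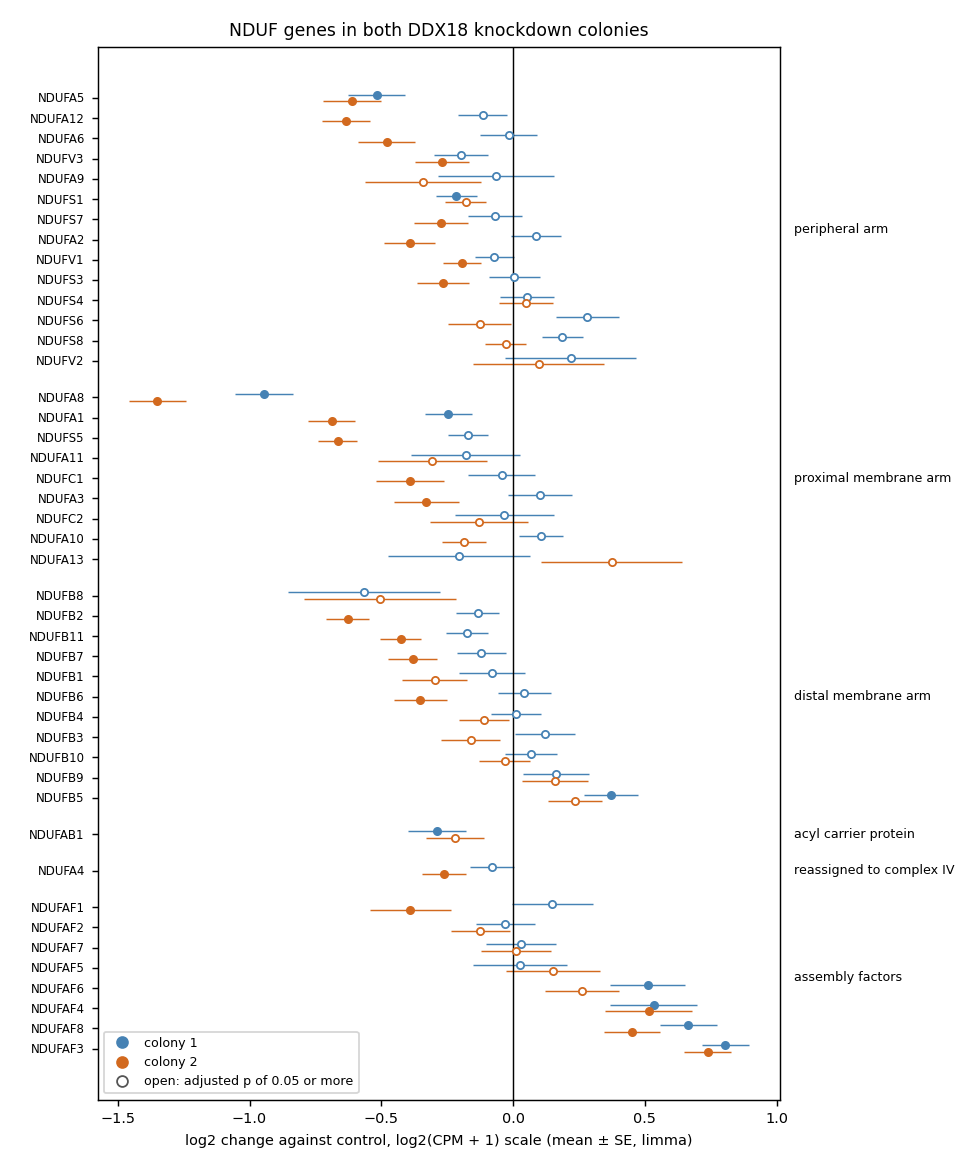
log2 change against control (x axis, log2(CPM + 1) scale, points and bars are the limma estimate ± SE) of 44 tested NDUF genes (y axis, grouped by place in the complex) in colony 1 (blue) and colony 2 (orange); filled points had an adjusted p under 0.05. NDUFA8 lies farthest to the left in both colonies, NDUFAF3 farthest to the right, and most orange subunit points lie to the left of the blue ones.

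Among the called genes, the 5 with the largest changes between both colonies and control were NDUFA8 and NDUFA5, which fell, and NDUFAF3, NDUFAF8 and NDUFAF4, which rose. Their promoter windows are shown because nuclear respiratory factor 1 (NRF1), YY1, ETS-family factors and CCAAT-binding factors are known to act at respiratory chain promoters, and the mRNAs of NRF1 and YY1 rose in these cells. Each window holds 300 bases around a RefSeq transcript start (GRCh38.p14), most of them upstream, 5′ to 3′ on the gene's strand. Capitals mark matches, on either strand, to GCGCATGC (NRF1), AAGATGG (YY1), CCGGAAG (ETS) and CCAAT; no 2 of these letter strings contain one another, but a palindrome-like string can match on both strands at overlapping places. They are NDUFA8 (chr9:122159730-122160029, minus strand), NDUFA5 (chr7:123557769-123558068, minus strand), NDUFAF3 (chr3:49020834-49021133, plus strand), NDUFAF8 (chr17:81239061-81239360, plus strand) and NDUFAF4 (chr6:96897842-96898141, minus strand).
NDUFA8: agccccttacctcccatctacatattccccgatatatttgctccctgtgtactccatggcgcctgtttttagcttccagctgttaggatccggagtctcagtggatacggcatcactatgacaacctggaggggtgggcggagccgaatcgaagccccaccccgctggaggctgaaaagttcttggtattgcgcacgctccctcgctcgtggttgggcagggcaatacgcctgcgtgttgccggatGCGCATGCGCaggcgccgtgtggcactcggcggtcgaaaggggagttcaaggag
NDUFA5: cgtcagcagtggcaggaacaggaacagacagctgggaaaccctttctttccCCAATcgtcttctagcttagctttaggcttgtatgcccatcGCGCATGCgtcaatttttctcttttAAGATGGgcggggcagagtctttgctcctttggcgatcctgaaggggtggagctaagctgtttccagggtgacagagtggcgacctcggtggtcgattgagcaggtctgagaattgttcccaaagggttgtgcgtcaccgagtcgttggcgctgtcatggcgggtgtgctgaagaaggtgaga
NDUFAF3: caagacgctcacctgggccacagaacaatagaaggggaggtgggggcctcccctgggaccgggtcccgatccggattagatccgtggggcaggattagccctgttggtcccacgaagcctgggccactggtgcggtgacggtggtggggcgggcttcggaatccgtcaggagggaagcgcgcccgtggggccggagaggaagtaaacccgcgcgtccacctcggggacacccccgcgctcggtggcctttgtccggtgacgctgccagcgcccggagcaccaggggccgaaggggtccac
NDUFAF8: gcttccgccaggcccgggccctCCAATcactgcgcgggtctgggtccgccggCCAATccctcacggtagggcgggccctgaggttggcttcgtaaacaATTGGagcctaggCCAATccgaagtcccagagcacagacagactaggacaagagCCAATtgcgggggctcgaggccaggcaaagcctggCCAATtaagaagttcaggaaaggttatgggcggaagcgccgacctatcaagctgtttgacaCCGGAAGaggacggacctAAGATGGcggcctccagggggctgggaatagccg
NDUFAF4: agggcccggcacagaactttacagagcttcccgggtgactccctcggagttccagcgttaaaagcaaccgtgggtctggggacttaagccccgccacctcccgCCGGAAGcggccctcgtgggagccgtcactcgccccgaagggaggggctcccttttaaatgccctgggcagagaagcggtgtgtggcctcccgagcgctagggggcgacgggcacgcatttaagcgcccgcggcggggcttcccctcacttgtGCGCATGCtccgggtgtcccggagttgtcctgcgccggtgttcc

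The NDUFA8 window held 2 overlapping NRF1 strings, 1 on each strand, and the NDUFA5 window held 1 NRF1, 1 YY1 and 1 CCAAT string. The start used for NDUFA5 lies 437 bases from that of its reference transcript in GENCODE release 29; for the other 4 genes the distance is at most 73 bases. Of the risen genes, NDUFAF8 held 6 CCAAT, 1 ETS and 1 YY1 string, NDUFAF4 held 1 ETS and 1 NRF1 string, and NDUFAF3 held none of the 4.

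Windows were found for 39 of the 46 genes; NDUFA4, NDUFAF6, NDUFB5, NDUFB9, NDUFC2 and NDUFS5 were among those with none. The NRF1 string was in 6 of 32 subunit windows, 2 of 7 assembly factor windows and 4.02% of all 17342 windows. The YY1 string was in 9 of 32, 1 of 7 and 6.36%, the ETS string in 5 of 32, 2 of 7 and 13.3%, and CCAAT in 8 of 32, 3 of 7 and 36.3%. Among the 6 subunits with the NRF1 string, NDUFA5, NDUFA6 and NDUFA8 fell and NDUFB4, NDUFS6 and NDUFS7 were not called in both colonies together. NDUFA1, NDUFA12, NDUFAB1, NDUFB2, NDUFB7, NDUFB11, NDUFS1 and NDUFV3 fell as well, with no NRF1 string in their windows. Of all tested genes, 21.5% fell. A link between the string and the fall was not tested. The fall of NDUFA6 came from colony 2 (-0.48, against -0.02 in colony 1). These counts describe letters in a window and not binding.

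In the peripheral arm, 6 of 15 tested subunits fell in both colonies together and none rose (all tested genes: 21.5% fell, 23.2% rose). Here 2 were lower in colony 1 and 9 in colony 2, where 18.3% and 19.8% of all tested genes were lower. Among the nuclear core subunits, which carry the flavin and the iron-sulfur clusters, the 6 described here ranged from -0.20 to 0.16 in log2 change. NDUFS1 was called in both colonies together. NDUFS1, the largest iron-sulfur subunit, measured 122.6 and 136 CPM in control, 112.5 and 109.6 CPM in colony 1 and 110.1 and 117.8 CPM in colony 2. Its fall of -0.20 ± 0.067 (SE, n = 2, 2 and 2 libraries, limma adjusted p = 0.018) was not called without control replicate 2 (-0.12, adjusted p = 0.262) or without colony 2 replicate 1.

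In colony 2 alone, 3 further core subunits were lower by small amounts: NDUFV1, which binds NADH and flavin (-0.19), NDUFS3 (-0.26) and NDUFS7, which holds the last iron-sulfur cluster before ubiquinone (-0.27). NDUFV1 measured 138.9 and 140.2 CPM in control, 131 and 135 CPM in colony 1 and 125 and 118 CPM in colony 2. NDUFS3 measured 46.5 and 49.7 CPM, then 48.9 and 47.7 CPM, then 38.9 and 40.9 CPM in the same order. NDUFS7 measured 51.5 and 51.4 CPM, then 46.2 and 52.1 CPM, then 39.0 and 46.0 CPM. In each of the 3 genes both colony 2 libraries lay below both controls, but each call was lost when control replicate 2 or colony 2 replicate 1 was left out, that of NDUFV1 also without control replicate 1 or colony 2 replicate 2, that of NDUFS3 also without colony 2 replicate 2 and that of NDUFS7 also without control replicate 1. Exons of AC005329.3 and AC005329.1 on the other strand cover 49.1% of the exonic bases of NDUFS7. NDUFS8 and NDUFV2 were not called in any comparison.

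NDUFA5, an accessory subunit of the peripheral arm on chromosome 7 (chr7:123536997-123558255), fell in both colonies. It measured 47.7 and 58.0 CPM in control, 36.9 and 36.0 CPM in colony 1 and 35.1 and 33.1 CPM in colony 2. The groups did not overlap, the knockdown mean was 66.8% of the control mean, and the log2 change was -0.56 ± 0.094 (adjusted p = 2.07e-05). It fell in colony 1 (-0.52) and in colony 2 (-0.61), and colony 2 minus colony 1 was -0.09 (95% interval -0.32 to 0.13).

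NDUFA12, which joins the arm late in assembly, measured 76.9 and 92.8 CPM in control, 76.0 and 79.8 CPM in colony 1 and 54.8 and 53.5 CPM in colony 2. Colony 1 overlapped the controls and colony 2 lay well below both, so that the change in both colonies together (-0.37 ± 0.079, adjusted p = 0.000361) came largely from colony 2 (-0.63); it was not called with the 4 knockdown libraries as 1 group (adjusted p = 0.155). NDUFA2, with a thioredoxin-like fold, was at 58.2 and 59.0 CPM in control, 64.3 and 60.5 CPM in colony 1 and 41.2 and 47.8 CPM in colony 2. NDUFA6, a subunit that binds the acyl carrier protein NDUFAB1, was at 44.3 and 49.5 CPM, then 43.3 and 49.5 CPM, then 31.0 and 35.8 CPM. Colony 2 was below all other libraries in both genes, while colony 1 lay above the controls for NDUFA2 and overlapped them for NDUFA6. Exons of TMCO6 and IK on the other strand cover 13.0% of the exonic bases of NDUFA2. IK was also lower in colony 2 (-0.31, limma adjusted p = 0.00175), while TMCO6 was not called. In both colonies together NDUFA6 was called lower (-0.25). That call was lost without control replicate 2, colony 1 replicate 1 or colony 2 replicate 1. It was also lost without a filter on low values and with the 4 knockdown libraries as 1 group (limma adjusted p = 0.21 for the latter). NDUFV3 also fell in both colonies together (-0.23), a call lost without either control library, either colony 1 library or colony 2 replicate 1. The NDUFV3 call was lost without a filter on low values too.

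In the membrane arm next to the peripheral arm, 3 of 9 subunits fell in both colonies together and none rose. The matching shares of all tested genes were 21.5% lower and 23.2% higher. The largest change of any NDUF gene was that of NDUFA8 (chr9:122144058-122159819), a subunit on the intermembrane-space side with paired cysteine motifs, which is imported through the CHCHD4 disulfide relay. It measured 65.6 and 66.8 CPM in control, 35.0 and 32.8 CPM in colony 1 and 27.8 and 23.1 CPM in colony 2. The 3 groups did not overlap. Knockdown libraries averaged 44.9% of control (29.7 ± 5.31 against 66.2 ± 0.831 CPM, mean ± SD, n = 4 and 2 libraries), and the log2 change was -1.15 ± 0.095 (limma adjusted p = 2.22e-10), with -0.94 in colony 1 and -1.35 in colony 2. NDUFA8 shares no exonic bases with another gene in GENCODE release 29.

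NDUFS5, a second intermembrane-space subunit with such cysteine motifs, measured 151 and 168 CPM in control, 140.8 and 142 CPM in colony 1 and 102 and 98.0 CPM in colony 2. NDUFA1, a small X-linked membrane subunit (chrX:119871487-119876662), measured 89.8 and 77.1 CPM, then 70.5 and 69.5 CPM, then 51.7 and 50.8 CPM. Both genes stepped down from control to colony 1 to colony 2 with no overlap. Against control, colony 2 was called in both, at -0.67 for NDUFS5 and -0.69 for NDUFA1. Colony 1 was not called for NDUFS5 (-0.17, limma adjusted p = 0.0738). For NDUFA1 it was called (-0.25), a call lost without control replicate 1 or either colony 1 library. The log2 change in both colonies together was -0.42 ± 0.065 for NDUFS5 (adjusted p = 8.16e-06, 0.0957 with the 4 knockdown libraries as 1 group) and -0.47 ± 0.078 for NDUFA1 (adjusted p = 1.96e-05). Of the bases in NDUFA1 exons, 44.5% also lie in exons of RNF113A on the other strand, and RNF113A itself stood at 14.8 to 19.3 CPM with no call; whether the counting used strand is not given in the sources used here. NDUFA3 and NDUFC1 were lower in colony 2 only among the comparisons with control (-0.33 and -0.39), the first call being lost without control replicate 2 or either colony 2 library and the second without control replicate 1 or colony 2 replicate 1. NDUFA10, NDUFA11, NDUFA13 and NDUFC2 were not called.

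In the outer part of the membrane arm, 3 of 11 subunits fell in both colonies together and 1 rose. Calls made up 36.4% of this group in either direction, against 44.7% of all tested genes (21.5% fell, 23.2% rose). NDUFB2 measured 95.0 and 92.1 CPM in control, 87.5 and 82.9 CPM in colony 1 and 59.5 and 60.9 CPM in colony 2. It stepped down without overlap, with a log2 change of -0.38 ± 0.071 (adjusted p = 8.13e-05, 0.0848 with the 4 knockdown libraries as 1 group). NDUFB2 was called in colony 2 (-0.63) but not in colony 1 (-0.13, limma adjusted p = 0.206). Exons of the antisense gene NDUFB2-AS1 and of BRAF cover 35.1% of its exonic bases. NDUFB2-AS1 fell as well (-0.37, adjusted p = 0.000803), from 58.1 and 57.6 CPM to between 38.5 and 49.8 CPM. BRAF rose (0.22, limma adjusted p = 0.035). In the shared bases, reads of these genes cannot be told apart without strand. NDUFB11, whose gene is X-linked, fell by 0.30 on the log2 scale and NDUFB7, another subunit with paired cysteine motifs, by 0.25. The NDUFB7 call was lost without control replicate 1 or colony 1 replicate 2, and with the 4 knockdown libraries as 1 group (limma adjusted p = 0.0509). Exons of RBM10 on the other strand cover 44.9% of the exonic bases of NDUFB11, and RBM10 was not called (74.4 to 80.3 CPM).

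NDUFB5 was the only subunit that rose in both colonies together. It measured 35.2 and 40.0 CPM in control, 49.2 and 48.7 CPM in colony 1 and 46.7 and 42.2 CPM in colony 2. All 4 knockdown libraries lay above both controls, the knockdown mean was 124% of control, and the log2 change was 0.30 ± 0.089 (adjusted p = 0.00712, 0.135 without control replicate 1). It was called in colony 1 (0.37) but not in colony 2 (0.23, adjusted p = 0.0721). The other members of this group, NDUFB1, NDUFB3, NDUFB4, NDUFB6, NDUFB8, NDUFB9 and NDUFB10, were not called in both colonies together.

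Outside the arms, NDUFAB1, the mitochondrial acyl carrier protein that also serves in fatty acid synthesis, fell in both colonies together (-0.25, adjusted p = 0.0313), a call lost without control replicate 2, colony 1 replicate 2 or colony 2 replicate 2. NDUFA4 was lower in colony 2 only among the comparisons with control (-0.26, adjusted p = 0.0137), a call lost without control replicate 1 or colony 2 replicate 1.

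**Figure D2:**
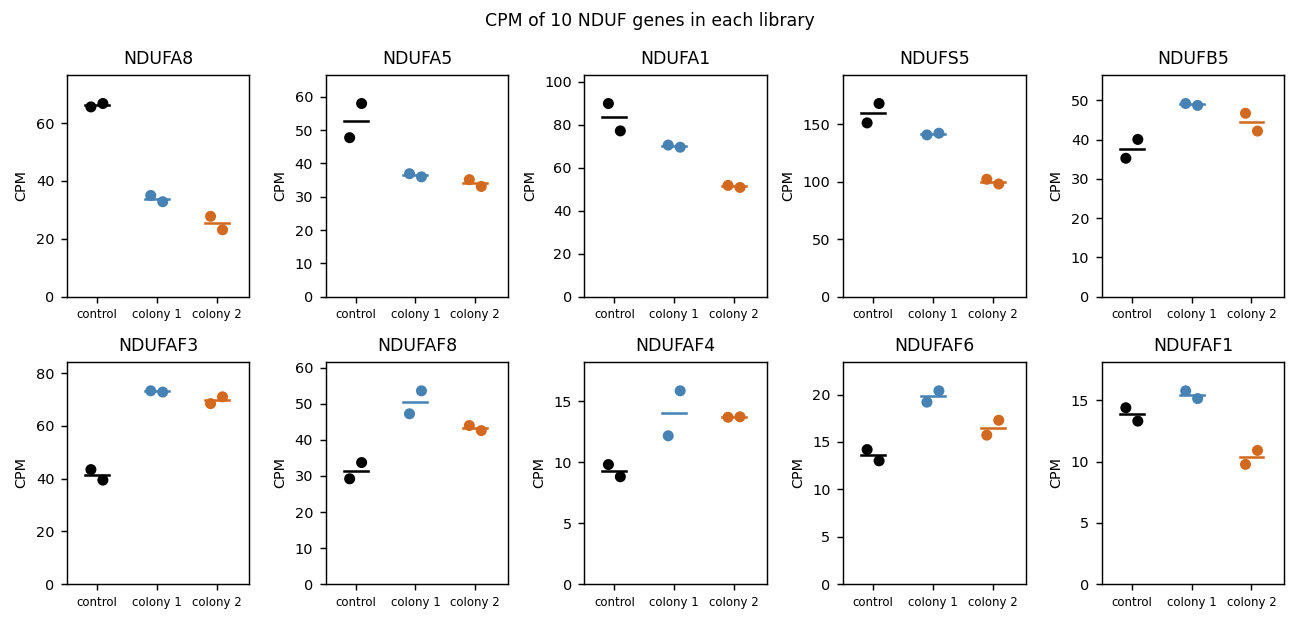
CPM (y axis, from 0) of 10 NDUF genes in each of the 6 libraries; points are libraries, lines the mean of the 2 libraries of control (black), colony 1 (blue) and colony 2 (orange). NDUFA8, NDUFA5, NDUFA1 and NDUFS5 lie below control in all 4 knockdown libraries, NDUFB5, NDUFAF3, NDUFAF8, NDUFAF4 and NDUFAF6 above it, and NDUFAF1 is below control in colony 2 and above it in colony 1.

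Among the 8 assembly factors, 4 rose in both colonies together and none fell (all tested genes: 23.2% rose, 21.5% fell). NDUFAF3 (chr3:49020459-49023495), which works with NDUFAF4 on the module that forms the ubiquinone site, measured 43.4 and 39.4 CPM in control, 73.3 and 72.8 CPM in colony 1 and 68.4 and 71.0 CPM in colony 2. The knockdown libraries lay within 5 CPM of each other and far above both controls, at 172% of the control mean. The log2 change was 0.77 ± 0.078 (limma adjusted p = 7.67e-09), and was much the same in colony 1 (0.81) and colony 2 (0.74). Exons of DALRD3 on the other strand cover 21.7% of the exonic bases of NDUFAF3, and DALRD3 itself was not called, at 92.0 to 109 CPM in the 6 libraries.

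NDUFAF4 (chr6:96889313-96897881), the partner of NDUFAF3, measured 9.81 and 8.81 CPM in control, 12.2 and 15.9 CPM in colony 1 and 13.7 and 13.7 CPM in colony 2. Its log2 change was 0.52 ± 0.14 (adjusted p = 0.00385) with no overlap between knockdown and control, on 88 to 168 reads a library. NDUFAF8 (chr17:81239239-81241281), which stabilises NDUFAF5, measured 29.2 and 33.7 CPM in control, 47.3 and 53.6 CPM in colony 1 and 44.0 and 42.6 CPM in colony 2. The groups again did not overlap, and the log2 change was 0.56 ± 0.093 (adjusted p = 2.03e-05). NDUFAF4 and NDUFAF8 share no exonic bases with another annotated gene. The call of NDUFAF4 in colony 1 was lost without control replicate 2 or colony 1 replicate 2, and in colony 2 without control replicate 2 or either colony 2 library.

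NDUFAF6, needed for assembly around the mitochondrially encoded subunit ND1, measured 14.2 and 13.0 CPM in control, 19.2 and 20.4 CPM in colony 1 and 15.7 and 17.3 CPM in colony 2. The knockdown libraries were all above the controls, with a log2 change of 0.39 ± 0.12 (adjusted p = 0.012, 0.104 without control replicate 2); it was called in colony 1 (0.51) and not in colony 2 (0.26, adjusted p = 0.146). NDUFAF1, a member of the assembly complex of the membrane arm, measured 14.4 and 13.3 CPM in control, 15.8 and 15.2 CPM in colony 1 and 9.78 and 10.9 CPM in colony 2. It was the only assembly factor lower in colony 2 (-0.39, adjusted p = 0.045), and that call was lost when any 1 of the 4 libraries compared was left out. Colony 2 minus colony 1 was -0.54, which was not called (adjusted p = 0.0629).

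The remaining 3 assembly factors were not called in any comparison. NDUFAF2, which holds the place of NDUFA12 in a late assembly stage, measured 31.7 and 34.0 CPM in control, 31.2 and 33.1 CPM in colony 1 and 30.3 and 29.7 CPM in colony 2. NDUFAF5, which hydroxylates NDUFS7, measured 8.38 and 9.31 CPM, then 9.15 and 8.89 CPM, then 8.72 and 11.2 CPM. NDUFAF7, a methyltransferase, measured 19.5 and 21.0 CPM, then 22.2 and 19.3 CPM, then 19.8 and 21.1 CPM. Their log2 changes in both colonies together lay between -0.08 and 0.09.

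Set directly against colony 1, colony 2 had 8 NDUF genes lower and none higher, where 1.65% of all tested genes were lower and 0.629% higher (2.28% in either direction). All 8 were subunits: NDUFA12 (-0.52 ± 0.091), NDUFS5 (-0.50 ± 0.075), NDUFB2 (-0.49 ± 0.082), NDUFA2 (-0.48 ± 0.095), NDUFA6 (-0.46 ± 0.11), NDUFA1 (-0.44 ± 0.090), NDUFA8 and NDUFB6. They came from all 3 regions of the complex, with 3 from the peripheral arm, 3 from the inner and 2 from the outer membrane arm. NDUFB6 measured 49.3 and 58.5 CPM in control, 55.9 and 54.7 CPM in colony 1 and 39.8 and 44.0 CPM in colony 2. Of the 37 subunits, 33 had a value below 0, as had 7 of the 8 assembly factors and 6979 of all 13675 tested genes. The median was -0.22 over the subunits, -0.08 over the assembly factors and -0.003 over all tested genes. The assembly factor median was -0.17 without colony 1 replicate 1 and -0.02 with the length trend described next removed. The count of 8 became 5 without colony 1 replicate 2 or colony 2 replicate 1 and 13 without either control library, where all tested genes called lower rose from 226 to 320.

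This difference between the colonies moved with transcript length. Tested genes with a reference transcript under 1000 nucleotides had a median of -0.08, and 10.7% of them were called between the colonies, against 0.0003 and 1.49% for longer ones; over 13308 genes the correlation with log2 length was 0.228, as a description across genes that are not independent. Most subunit mRNAs are short. The 22 subunits under 1000 nucleotides had a median of -0.24 and the 15 longer ones a median of -0.21. Genes were also split into narrower length ranges. In the range with the most subunits (10), the median was -0.11 over the subunits and -0.11 over all tested genes. In every other range the subunit median was the lower one. In the next longer range it was -0.35 over 7 subunits, against -0.10 over all tested genes. With each library's trend on length removed, NDUFA12, NDUFA2, NDUFB2 and NDUFS5 were still called and NDUFA1, NDUFA6, NDUFA8 and NDUFB6 were not, and the subunit median was -0.16. The comparison of both colonies with control showed next to no such trend (correlation -0.002), and all 18 calls in it were kept. The correlation was -0.056 in colony 1 and 0.052 in colony 2 against control. With the trend removed, the call of NDUFS1 in colony 1 and those of NDUFA3, NDUFAF1, NDUFS3 and NDUFS7 in colony 2 were lost, 1 of 10 and 4 of 23.

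**Figure D3:**
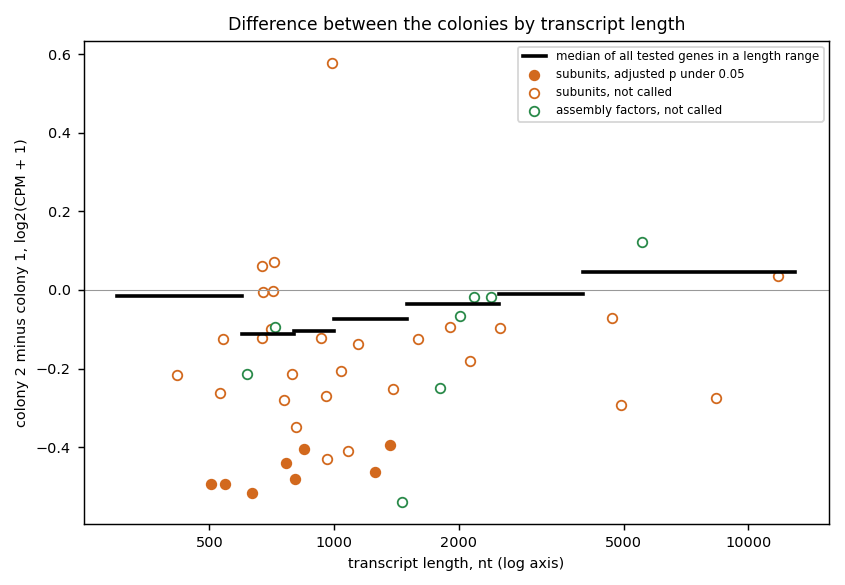
Difference between colony 2 and colony 1 (y axis, log2(CPM + 1)) against the length of the reference transcript (x axis, nucleotides, log axis) for 44 tested NDUF genes, with the median of all tested genes in 7 length ranges as black lines. Filled points had an adjusted p under 0.05; the 8 of them lie between -0.52 and -0.39, below the black lines.

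Complex I genes outside the NDUF names did not share 1 direction. Of 11 other assembly factors, 1 rose and 2 fell in both colonies together (all tested genes: 23.2% rose, 21.5% fell). TMEM126B, a partner of NDUFAF1, rose from 33.7 and 42.6 CPM to 49.9 and 53.5 CPM in colony 1 and stood at 41.4 and 48.1 CPM in colony 2 (0.33, adjusted p = 0.00702, 0.257 without control replicate 1). NUBPL, which delivers iron-sulfur clusters to complex I, fell from 15.8 and 18.3 CPM to between 9.73 and 12.0 CPM (-0.62, adjusted p = 0.00087). TMEM70, which serves both complex I and ATP synthase, fell from 32.2 and 36.7 CPM to between 23.5 and 27.3 CPM (-0.46, adjusted p = 0.000822).

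Of the 7 subunits encoded by mitochondrial DNA, 2 rose and 1 fell in both colonies together (all tested genes: 23.2% rose, 21.5% fell). MT-ND2 measured 1840.0 and 1947 CPM in control, 2383 and 2179.8 CPM in colony 1 and 2349 and 2299 CPM in colony 2 (0.28, adjusted p = 3.23e-05), and MT-ND1 rose by 0.19 (adjusted p = 0.00252, 0.0827 without control replicate 1). MT-ND6 measured 1429 and 1469 CPM, then 1280.2 and 1334 CPM, then 1029 and 959 CPM (-0.35, adjusted p = 2.43e-06). MT-ND3, a short mRNA, was at 645 and 670.3 CPM in control, 832 and 746 CPM in colony 1 and 440 and 501 CPM in colony 2; it was higher than control in colony 1 (0.26) and lower in colony 2 (-0.49), and the colonies differed by -0.75 (adjusted p = 2.35e-07). The call in colony 1 was lost without colony 1 replicate 1 (adjusted p = 0.067). MT-ND6 is read from the other strand of the mitochondrial genome, so its value depends on a strand setting that is not given in the sources used here.

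Of 9 transcription factors and coactivators of mitochondrial biogenesis, 5 rose and 1 fell in both colonies together (all tested genes: 23.2% rose, 21.5% fell). TFB2M, a mitochondrial transcription initiation factor, rose from 10.9 and 9.81 CPM to between 19.0 and 20.8 CPM (0.89, adjusted p = 1.55e-06). PPARGC1B, a coactivator, rose from 1.63 and 1.50 CPM to between 3.10 and 4.43 CPM (0.88, adjusted p = 0.00129). PPARGC1A, its better known relative, fell from 11.6 and 12.2 CPM to between 3.91 and 5.33 CPM (-1.17, adjusted p = 2.86e-06). The other risen genes were YY1 (0.59), PPRC1 (0.52) and NRF1 (0.40), while GABPA, ESRRA and TFAM were not called. Of 3 genes of the disulfide relay, GFER, which reoxidises CHCHD4, rose (0.32, adjusted p = 0.0303), but its adjusted p was 0.32 once control replicate 2 was left out, and the call was also lost without replicate 2 of either colony and with libraries centred on their medians. CHCHD4 and AIFM1 were not called.

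Levels differed widely among the NDUF genes in control cells. Per kilobase of reference transcript, the mean control CPM ran from 293 for NDUFS5, 186 for NDUFB2 and 134 for NDUFA12 down to 1.01 for NDUFA7 and 0.586 for NDUFA9. The median was 44.3 CPM per kilobase over the subunits and 9.40 over the assembly factors, among which NDUFAF8 stood highest at 51.2. Of 9 members under 10 CPM in control, 7 were subunits (NDUFA7, NDUFA9, NDUFA11, NDUFA13, NDUFB8, NDUFC2 and NDUFV2), and all 7 share exonic bases with another gene on the same strand. Only 6 members at 10 CPM or more do so. The shared part was 33.8% of the exonic bases of NDUFB8, 32.3% of NDUFA7 and 28.4% of NDUFV2, and the part of such overlap in the low counts was not tested.

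The core subunit NDUFV2 measured 2.25 and 2.30 CPM in control, 3.12 and 2.53 CPM in colony 1 and 3.01 and 2.05 CPM in colony 2, while its pseudogene NDUFV2P1 measured 1.87 to 5.05 CPM. The gene and its copy are therefore uncertain. Of 61 pseudogene rows of NDUF genes, that was the only one with a mean of at least 1 CPM. Leaving out all subunits with same-strand overlap, 11 of 25 fell and 1 rose in both colonies together, with a median of -0.17. Shares over all tested genes were 21.5% lower and 23.2% higher.

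**Figure D4:**
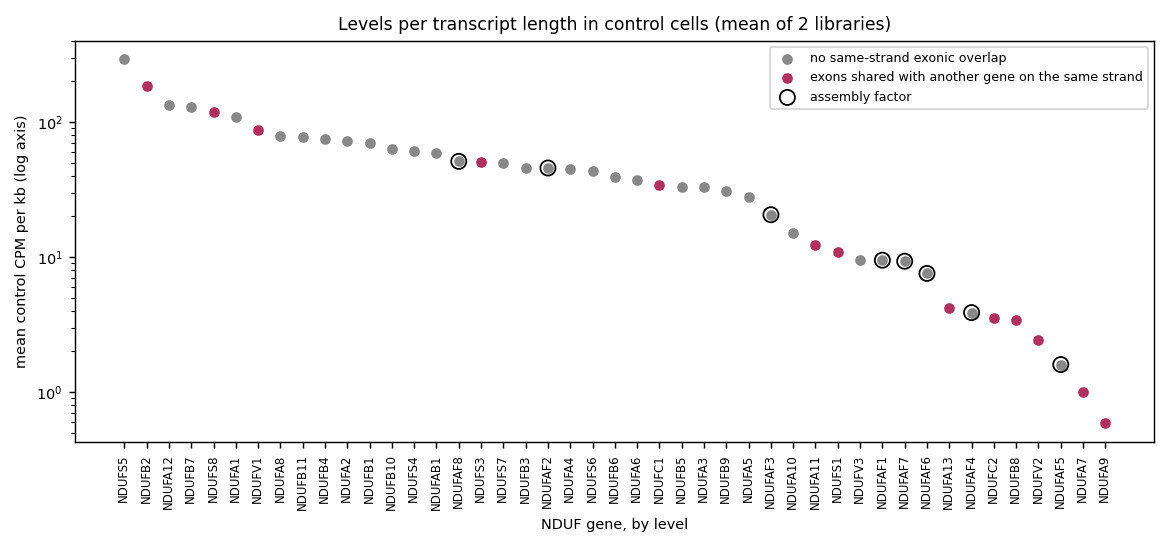
Mean control CPM per kilobase of reference transcript (y axis, log axis, mean of 2 libraries) of 45 NDUF genes in order of level (x axis); red points share exons with another gene on the same strand and circled points are assembly factors. NDUFS5 stands highest at 293 and NDUFA9 lowest at 0.586, and red points crowd the low end.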

How the data were processed

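The deposited table names no unit. Its columns sum to between 956008 and 984969, and every value was a whole multiple of its library's step (tolerance 1e-06), so the values were taken as CPM, reads of a gene that the authors had scaled to library size; the steps gave the read totals. The submitters' processing notes name Trim Galore for trimming and HISAT2 for alignment, give no versions, and list the builds hg38 and mm10. Libraries were made from polyadenylated RNA with random primers, per the labels' protocols. No source used here gives the counting program, its annotation or its use of strand. The planned limma test for CPM was used, and no test was run on read counts. CPM are relative to the library total, so a change in a few abundant genes shifts all others.

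Rows without a symbol (15200) and rows sharing one (10) were left out. The 13675 genes whose mean over the libraries reached 1 CPM were fitted as log2(CPM + 1) with limma 3.58.1 in R 4.3.3 (trend, robust, statmod 1.5.0), 3 groups of 2 libraries, no covariates, two-sided, Benjamini-Hochberg over all tested genes, and the same steps were tested on simulated data. Transcript length, position and overlaps came from GENCODE release 29 (GRCh38), promoters from RefSeq (GRCh38.p14). The NDUF genes, gene lists and tests were chosen with earlier results of these data known. Values per library were given for every NDUFAF gene, called core subunits, the 10 called genes with the largest change in both colonies together and the 6 with the largest difference between colonies; at most 3 called genes per other list were named. YY1, PPRC1 and NRF1, the opposite-strand neighbours, NDUFB5, NDUFB6, NDUFV2 and the 5 promoters were added after their values were seen. Some items, 1 NDUF gene among them, are counted in totals and medians but not reported here one by one.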

Additional observations from a re-analysis of the deposited data

Results flagged for a closer look

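The change against control differed between the colonies in 8 subunit genes by the limma test of colony 2 against colony 1, adjusted over all tested genes. The log2 difference was -0.52 for NDUFA12 (adjusted p = 0.00106), -0.50 for NDUFS5 (adjusted p = 0.000154), -0.49 for NDUFB2 (adjusted p = 0.000456), -0.48 for NDUFA2 (adjusted p = 0.00365), -0.46 for NDUFA6 (adjusted p = 0.0179), -0.44 for NDUFA1 (adjusted p = 0.0049), -0.40 for NDUFA8 (adjusted p = 0.0469) and -0.39 for NDUFB6 (adjusted p = 0.0335). In each of the 8, both colony 2 libraries lay below both colony 1 libraries. The test that picked them used these same libraries, so this adds no support. The same order of libraries was seen in many NDUF genes that were not called between the colonies. Among them were NDUFA3, NDUFA4, NDUFA5, NDUFA10, NDUFAF2, NDUFAF3, NDUFAF8, NDUFB4, NDUFB7, NDUFB10, NDUFB11, NDUFS3, NDUFV1 and NDUFV3. The share of all tested genes with this order is not given here. NDUFA12, NDUFB2 and NDUFS5 were called in all 14 alternatives tried for this comparison, and the other 5 were each lost in at least 1. NDUFA8 was lost in 7 of the 14 and NDUFB6 in 5.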

How the results depend on the processing

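With 2 libraries a group, calls at the edge of the threshold depended on single libraries. Leaving out 1 library at a time, the NDUF genes lower in both colonies together numbered 9 to 12 and those higher 4 to 5; in colony 1 they were 2 to 5 and 4 to 6, in colony 2 10 to 20 and 2 to 4, and in colony 2 against colony 1 5 to 13 and 0 to 0. Treating the 4 knockdown libraries as 1 group gave 8 lower in place of 13. Without a filter on low values, 3 were lower in colony 1 in place of 5, and 15 in colony 2 in place of 20. All tested genes called lower then numbered 2470 in colony 1 and 2622 in colony 2, in place of 2500 and 2714. This setting tests more genes and also refits the spread, and the cause was not tested. Between the colonies, the count of 8 lower became 18 with the replicate number as a block, 4 with the length trend removed and 13 with only the groups compared; the first and last of these change the estimated spread, and the cause was not tested further. Over all tested genes that comparison gave 361 higher and 675 lower with the block and 54 and 122 without the length trend, in place of 86 and 226.

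The labels do not say that a replicate number marks a shared batch. Across 13675 genes, deviations of same-numbered libraries correlated at 0.119 (control and colony 1), 0.128 (control and colony 2) and 0.159 (colony 1 and colony 2), and 2 numbers are too few to show pairing. With the block, lower and higher counts were 15 and 5 in both colonies together, 7 and 7 in colony 1 and 23 and 4 in colony 2. Calls over all tested genes rose too, to 3428 lower and 3642 higher, 3021 and 3377, and 3260 and 3310 in the same order.

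No called NDUF gene changed direction in any alternative. Over all NDUF genes, alternatives and comparisons, 2329 values kept their side of the threshold, 98 lost the call and 65 gained one. Called in all 14 alternatives were 7 of 18 genes in both colonies together, 5 of 10 in colony 1, 12 of 23 in colony 2 and 3 of 8 between the colonies. The first 7 were NDUFA1, NDUFA5, NDUFA8, NDUFB11, NDUFAF3, NDUFAF4 and NDUFAF8. The subunit median stayed below 0 and the assembly factor median above 0 against control under median centring, at -0.22 and 0.19 in both colonies together. The planned tests on whole reads, edgeR and DESeq2, were not run.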
